A study of Mus musculus with 2 samples.

Results

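The cells described here are 292 mouse lung cells that carry transcripts of Cd209a, a C-type lectin receptor used to mark type 2 conventional dendritic cells. They were chosen by their own counts of unique molecular identifiers (UMIs, tags that count captured transcript molecules). A cell was a member with at least 2 UMIs of Cd209a, at least 5 UMIs summed over the class II genes H2-Aa, H2-Ab1 and H2-Eb1, and at most 10% of its UMIs on mitochondrial genes. It also had to have 0 UMIs of Xcr1 and Clec9a (type 1 dendritic cells), of Ccr7 (migratory dendritic cells) and of Cd79a (B cells), and under 0.3% of its UMIs on the C1q genes of macrophages. The rule found 101 of 8026 control cells and 191 of 6945 fibrosis cells within the mitochondrial limit, out of 8280 and 7173 deposited. Cd209a, the class II genes and the genes held at 0 are therefore part of the choice and are given as description.

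Whole lungs of male C57Bl/6J mice aged 3 months were dissociated and sequenced as single cells by 10x Genomics 3′ chemistry (V2), 14 days after 100 µg of particles were put into the trachea. The protocols of both samples name titanium dioxide (TiO2) and crocidolite asbestos, a mineral fibre that scars the lung, without saying which mouse received which. The libraries are called control and fibrosis, as labelled, and each came from 1 mouse, so no difference between them has a replicate check and no p-value is given. Intervals of levels, shares and ratios are exact 95% intervals, those of differences between shares are combined from them, and all cover counting error only.

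Dendritic cells take up antigen and present it to T cells. The conventional kind falls into type 1 cells, which depend on the transcription factors Batf3 and Irf8 and present antigen to CD8 T cells, and type 2 cells, which depend on Irf4, carry Sirpa and Itgam, and mainly instruct CD4 T cells. Type 2 cells share many surface proteins with monocytes and with the dendritic-like cells that monocytes form in inflamed tissue. Fcgr1, the high-affinity IgG receptor CD64, and Ly6c2, a surface protein of classical monocytes, are commonly used to separate the latter. Plasmacytoid dendritic cells, the main producers of type I interferon, carry Siglech, Bst2 and Ly6c2 as well.

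Several genes on which the description turns have close relatives, and the stretches below show why their coding sequence separates them poorly. On GRCm38 with the GENCODE M21 annotation, Ly6c2 lies on chromosome 15 at 75108158 to 75111970 on the minus strand and Ly6c1 at 75044018 to 75048830 on the same strand. Their first 120 coding bases are printed 5′ to 3′, with the 6 bases that differ in capitals.
Ly6c2: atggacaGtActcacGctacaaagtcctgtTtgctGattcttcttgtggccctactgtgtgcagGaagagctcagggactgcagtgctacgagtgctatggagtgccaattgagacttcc
Ly6c1: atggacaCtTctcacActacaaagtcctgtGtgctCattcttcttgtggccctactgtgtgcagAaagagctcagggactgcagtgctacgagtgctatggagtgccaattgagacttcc
The lectins Mgl2 (chromosome 11, 70130329 to 70137550, plus strand) and Clec10a (70156197 to 70170834, plus strand) share the following 120 coding bases without a difference, at coding positions 550 to 669 of Mgl2 and 502 to 621 of Clec10a.
Mgl2: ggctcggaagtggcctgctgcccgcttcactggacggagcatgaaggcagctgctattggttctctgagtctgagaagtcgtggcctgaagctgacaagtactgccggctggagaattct
Clec10a: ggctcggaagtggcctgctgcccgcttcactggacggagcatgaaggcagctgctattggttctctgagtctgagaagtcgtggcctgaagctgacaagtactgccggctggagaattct
Over the aligned coding bases, with gaps left out, Ly6c2 and Ly6c1 are 94.0% identical (386 bases) and Mgl2 and Clec10a 93.4% (920 bases). This chemistry reads the end of the transcript. Over the aligned part of its last 300 bases the identity is 64.9% (265 bases) and 67.6% (247 bases). Ear2 and Ear1 (98.7%) and Bcl2a1a and Bcl2a1b (98.7%) are nearly identical at that end too, so the split of counts within those families is uncertain.

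The members were of ordinary depth. Control members had a median of 4826 UMIs and fibrosis members of 5166, with ranges of 1696 to 14813 and 2091 to 19942, and summed totals of 524286 and 1044728 UMIs. All cells within the mitochondrial limit had medians of 3810.5 and 4340 UMIs. The lowest deposited total differed, at 1460 and 1915 UMIs. The libraries shared 89 barcodes, which 1 control and 2 fibrosis members carried, and no barcode was a member in both. No doublet was removed from the members, and their doublet scores are given with the cells of mixed content below.

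The markers fixed for the label were checked first. Cd209a was at 1411 CPM (the UMIs of a gene scaled to counts per 1e+06 UMIs summed over the cells) in control members and 1123 CPM in fibrosis members. It had 0 UMIs in migratory dendritic cells and 3 and 6 UMIs in all AT2 cells, the alveolar type 2 epithelium. The rules for type 1 dendritic cells, classical monocytes, interstitial macrophages, B cells and T cells fix it at 0. Clec10a was low, at 91.6 and 110 CPM, with a UMI in 22.8% and 31.9% of members against 0.246% and 0% of B cells. B cells had lower median depths, 1834 and 2595.5 UMIs. Flt3, the receptor for the growth factor that maintains conventional dendritic cells, was at 64.8 and 73.7 CPM, below its 95.5 and 159 CPM in type 1 dendritic cells. H2-DMb2, which helps load peptide onto class II molecules, had a UMI in 59.4% and 53.9% of members but in 78.6% and 74.5% of B cells, so it did not set the members apart.

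Other genes that the rule did not use were Mgl2 and Ccl17. Mgl2, a galactose-binding lectin, had a UMI in 61.4% of control and 65.4% of fibrosis members, against 0.627% and 1.42% of AT2 cells, whose median depths were 5721 and 5462 UMIs. Ccl17, a chemokine that attracts Ccr4-bearing T cells, had one in 37.6% and 44.5% of members and in 0.418% and 2.12% of AT2 cells. Type 1 dendritic cells, deeper at medians of 6699 and 7029 UMIs, held both genes in fewer but not few cells, with Mgl2 in 13.6% and 29.6% and Ccl17 in 23.7% and 27.5%. After thinning every cell to 1500 UMIs the members' shares were 51.5% and 47.6% for Mgl2 and 24.8% and 36.6% for Ccl17. Interstitial macrophages also held Mgl2, at 458 and 451 CPM against 704 and 599 CPM in members, and migratory dendritic cells held Ccl17, at 878 and 4084 CPM against 906 and 890 CPM in members. Irf4 was at 49.6 and 70.8 CPM in members and had 0 UMIs in control and 3 in fibrosis type 1 cells, while Irf8, their factor, was at 1655 and 1585 CPM there and at 288 and 67.0 CPM in members. Itgam, at 95.4 and 108 CPM, and Sirpa, at 114 and 108 CPM, were likewise higher in members than in type 1 cells, at 7.34 and 13.7 CPM and 4.90 and 10.1 CPM. Irf4, Itgam and Sirpa thus set the members apart from type 1 cells, the only class they are compared with here. Of the markers fixed for the label, Cd209a was part of the rule and Clec10a was weak. Flt3 was below its level in type 1 cells, and H2-DMb2 was found in fewer members than B cells. Some members departed from the label as described below.

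**Figure D1:**
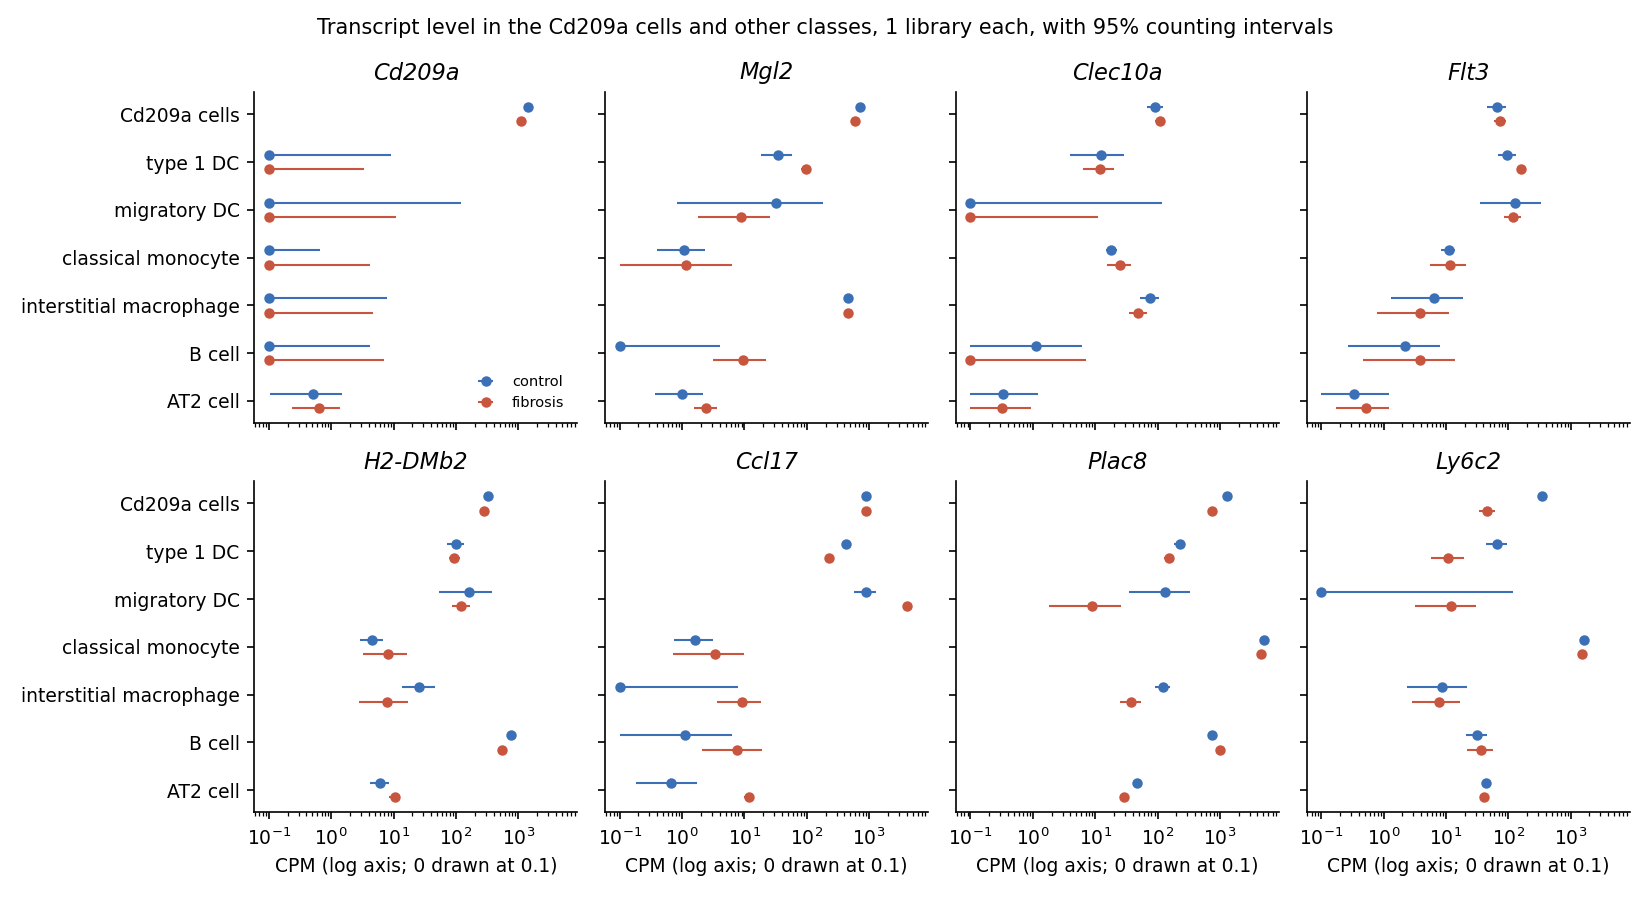
Level of 8 genes (CPM, log axis, 0 drawn at 0.1) in the Cd209a cells and in 6 classes chosen by rule, for the control (blue) and fibrosis (red) library, with exact 95% counting intervals. Cd209a is at or near 0 outside the members, in part by the class rules, whereas H2-DMb2 is higher in B cells, Mgl2 is shared with interstitial macrophages, and Plac8 and Ly6c2 are highest in classical monocytes.

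At the edges of the rule, 14 control and 35 fibrosis members had exactly 2 Cd209a UMIs, and 24 and 56 cells just outside had exactly 1. The median member had 6 and 5, and the highest 22 and 28. Mgl2 in the control library was at 118 CPM in cells with 1 Cd209a UMI, 119 CPM in those with 2 and 790 CPM in those with 3 or more. The corresponding fibrosis values were 280, 566 and 606 CPM. Class II UMIs reached a median of 115 and 114, with the lowest members at 7 and 5, and 8 and 10 cells fell short of the minimum alone. The limits on Clec9a, Xcr1, Ccr7 and Cd79a each removed between 0 and 10 cells alone, and the C1q limit 3 and 2.

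Members were more frequent in the fibrosis library. They were 1.26% of control cells (101 of 8026, 1.03 to 1.53) and 2.75% of fibrosis cells (191 of 6945, 2.38 to 3.16), a difference of 1.49 percentage points (1.03 to 1.97). Of cells with a UMI of Ptprc, the leukocyte gene CD45, they were 1.60% and 4.30%. Type 1 dendritic cells were more frequent too, with 59 and 142 cells. Members accordingly made up 63.1% (55.1 to 70.6) and 57.4% (51.8 to 62.7) of members and type 1 cells together, a difference of -5.77 points whose interval (-15.1 to 3.85) spans 0. Migratory dendritic cells numbered 8 and 58. Of members, type 1 and migratory cells together, members made up 60.1% (52.3 to 67.6) and 48.8% (43.8 to 53.9), a difference of -11.3 points (-20.3 to -1.94). Classical monocytes by rule numbered 977 and 191, so the balance against monocytes moved the other way from that against type 1 cells. The shares are of cells in a suspension and depend on what else was recovered.

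The members were next divided by Fcgr1 and Ly6c2. At least 1 UMI of either was found in 29 of 101 control members (28.7%, 20.1 to 38.6) and 32 of 191 fibrosis members (16.8%, 11.8 to 22.8). Ly6c2 accounted for most, with 27 cells in each library, and Fcgr1 for 8 and 9. B cells, which should lack both, had a UMI in 3.93% and 6.25% of cells at their lower depth, and AT2 cells in 20.9% and 18.0%. The AT2 share was nearly all Ly6c2, found in 20.7% and 17.8% of AT2 cells against 26.7% (18.4 to 36.5) and 14.1% (9.53 to 19.9) of members. Type 1 dendritic cells, which were deeper, had a Ly6c2 UMI in 13.6% and 5.63% of cells, and T cells, which were shallower, in 7.58% and 5.13%. The fibrosis share of Ly6c2 thus lay at or below that of AT2 cells but above that of these classes. It is not read as expression, because the background depends on the class chosen. Fcgr1 was found in 7.92% (3.48 to 15.0) and 4.71% (2.18 to 8.76) of members. That was above its 0.209% and 0.258% in AT2 cells in both libraries. In type 1 cells it was found in 0 of 59 control and 2.11% (0.438 to 6.05) of fibrosis cells. The intervals of members and type 1 cells overlap in both libraries. Interstitial macrophages had it in 30.8% and 27.7% of cells.

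The number of UMIs per cell separated the libraries further. Of the cells with a UMI, 7 of 29 control and 17 of 32 fibrosis cells had exactly 1. At least 2 UMIs were found in 21.8% (14.2 to 31.1) and 7.85% (4.46 to 12.6) of members. The same was found in 4.70% and 4.25% of AT2 cells and in 6.78% and 1.41% of type 1 dendritic cells. At least 5 were found in 14 control members and in 0 of 191 fibrosis members, and the highest cell had 29 and 4. After thinning to 1500 UMIs, at least 1 UMI was found in 20.8% and 8.38% of members, beside 6.17% and 5.15% of AT2 cells. Of the control members, 6 of the 14 with at least 5 UMIs and 9 of the 22 with at least 2 were Siglech-bearing cells, described below. Without the cells set aside there, at least 2 UMIs were found in 15.5% and 6.51% of cells and at least 5 in 8 of 84 and 0 of 169. The control library thus held members with many UMIs of these genes, and in the fibrosis library no member was beyond the highest AT2 cell, at 7 UMIs.

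Many genes other than those used for the division differed between the cells with and without a UMI of Fcgr1 or Ly6c2. Genes with at least 100 UMIs over the compared cells were counted as higher or lower when their CPM ratio, with 0.5 UMI added to each sum, was at least 2-fold. In the control library 31 of 601 genes were higher (5.16%) and 29 lower (4.83%) in cells with a UMI, and in the fibrosis library 39 of 1152 were higher (3.39%) and 36 lower (3.12%). Of the 600 genes that passed the minimum in both libraries, 13 were higher in both, 12 lower in both and 2 went opposite ways.

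The 12 genes highest in both libraries included surface and secreted products of monocytes. Plac8, a cysteine-rich protein of monocytes and plasmacytoid cells, was at 3639 CPM with and 345 CPM without a UMI in the control library (log2 ratio 3.40, 3.12 to 3.69), and at 1787 and 512 CPM in the fibrosis library (1.80, 1.59 to 2.01). Lyz2, the lysozyme of myeloid cells, had log2 ratios of 1.77 and 1.70. Chil3, a chitinase-like protein of monocytes and alternatively activated macrophages, had 1.86 and 1.74. In the fibrosis library, however, Chil3 had a UMI in 68.8% of cells with and 69.8% of cells without Fcgr1 or Ly6c2. That ratio therefore did not come with a larger share of cells, and Chil3 was lower in the fibrosis Plac8 cells than in the Mgl2 cells described below. Bst2 (tetherin) had 3.71 and 2.01, Ly6e 2.38 and 1.08, and the interferon-inducible membrane protein Ifitm3 1.75 and 1.20. Msrb1, Mpeg1, Lst1, Ifi27l2a, Ifitm2 and Cd300a completed the list. Genes of one sign in both libraries were ranked by the smaller of their ratios, so that all 12 were higher in both follows from the choice. The ratios of Plac8, Bst2 and Ly6e were larger in the control library.

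The 12 lowest genes were led by products of the Mgl2-bearing cells. Ccl17 had 1 UMI in the 29 control cells with and 474 in the 72 without, and 47 and 883 UMIs in the 32 and 159 fibrosis cells. Mgl2 had 0 and 369 UMIs in the control library, at least 49.3-fold lower when 3 counts over the group are taken as the floor, and 52 and 574 UMIs in the fibrosis library (log2 ratio -1.22, -1.67 to -0.82). Id2, a transcription regulator that conventional dendritic cells need, had log2 ratios of -2.82 and -1.44, and H2-DMb2 -2.78 and -1.42. H2-Eb1, a class II chain that the rule used, had -1.58 and -1.01, the cysteine protease inhibitor Cst3 -1.81 and -1.03, and the inhibitory IgG receptor Fcgr2b -1.42 and -1.03. Bcl2a1b, Mt1, Ear2, Lmo4 and Olfm1 made up the rest, with Bcl2a1b and Ear2 uncertain as members of near-identical families.

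**Figure D2:**
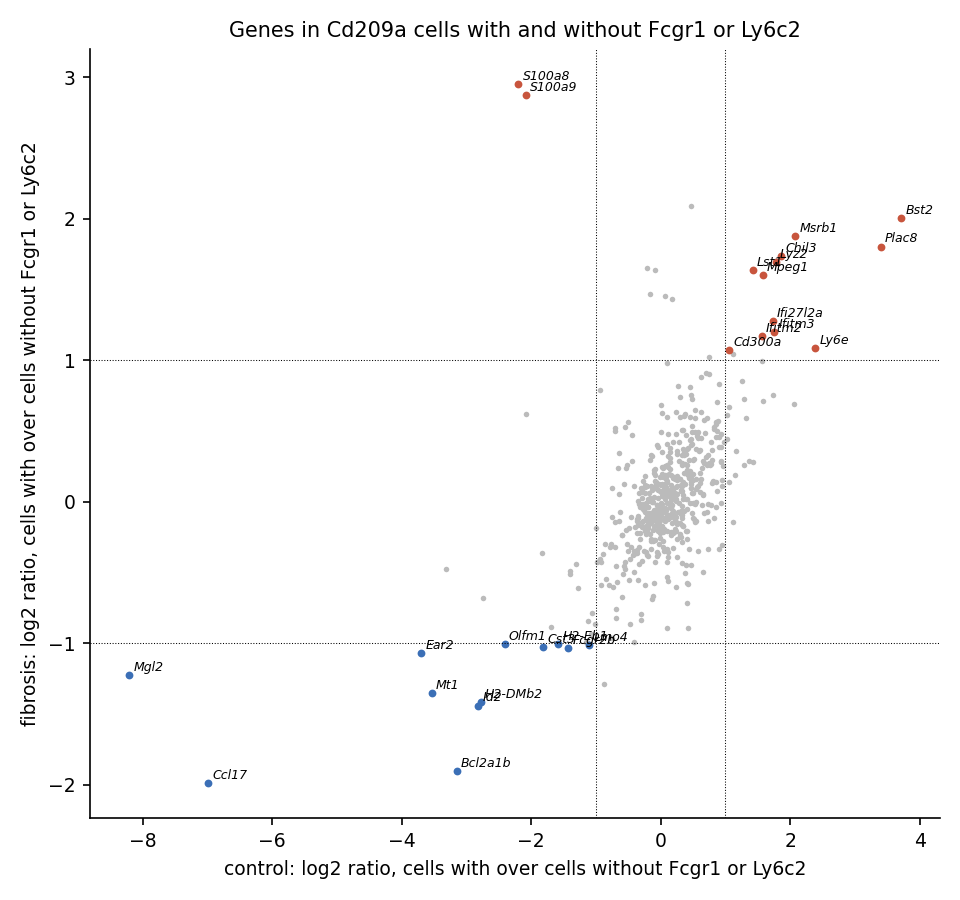
Log2 CPM ratio of Cd209a cells with over those without a UMI of Fcgr1 or Ly6c2, in the control library (x axis) and the fibrosis library (y axis), for the 600 genes with 100 UMIs in each. Dotted lines mark 2-fold, the 12 highest and 12 lowest genes in both are named, and S100a8 and S100a9 stand alone with opposite signs.

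Over all genes counted in the control and fibrosis library, 5.16% and 3.39% were higher and 4.83% and 3.12% lower. By role, the monocyte and macrophage list had 6 of 10 genes that met the minimum higher in the control library. In the fibrosis library it had 5 of 16 higher, with 0 lower in either. Its median log2 ratio was 1.22 and 0.44, beside 0.09 and 0.00 over all genes counted. Class II presentation genes had 5 of 9 and 3 of 11 lower and 0 higher, with medians of -1.06 and -0.79. Class I genes had 0 of 4 and 0 of 6 past 2-fold either way, with medians of 0.67 and 0.42. Of the list of interferon response genes only Bst2 and Ly6e met the minimum, and both were higher in both libraries. The lists passed the minimum partly through the group in which they are high, and the members were chosen with class II, so these counts describe the division and test nothing.

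Because these genes differed together, the 250 bases before the start of Bst2, among the highest genes, and of Ccl17, the lowest, are printed (RefSeq, GRCm38.p6). The letters searched on both strands were a GAAA repeat, 2 copies of GAAA with any 2 bases between, as interferon-stimulated response elements hold, and TTC followed by GAA after any 3 or any 4 bases, as STAT sites hold. Capitals mark every match. The Bst2 stretch is chr8:71537473-71537722 on the minus strand, and the Ccl17 stretch chr8:94810203-94810452 on the plus strand.
Bst2: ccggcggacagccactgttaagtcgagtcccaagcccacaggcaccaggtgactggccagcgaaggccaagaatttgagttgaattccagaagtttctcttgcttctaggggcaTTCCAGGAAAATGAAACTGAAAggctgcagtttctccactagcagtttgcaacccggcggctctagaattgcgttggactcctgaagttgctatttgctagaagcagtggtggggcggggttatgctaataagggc
Ccl17: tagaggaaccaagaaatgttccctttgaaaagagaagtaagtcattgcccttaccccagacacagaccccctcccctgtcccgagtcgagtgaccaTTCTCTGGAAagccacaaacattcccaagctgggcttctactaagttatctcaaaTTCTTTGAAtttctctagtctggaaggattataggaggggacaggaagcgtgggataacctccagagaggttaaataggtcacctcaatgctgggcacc
In Bst2, 2 overlapping GAAA repeats begin 130 and 124 bases before the start and overlap a TTC and GAA match with 3 bases between. Ccl17 holds 1 TTC and GAA match with 4 bases between and 1 with 3. The GAAA repeat occurred in 2.98% of 32851 such stretches, and TTC and GAA in 7.02% with 3 and 5.85% with 4 bases between. Of the 12 highest genes 9 had an entry, and 2 of these, Bst2 and Ifitm2, held the GAAA repeat, against 0 of the 12 lowest. TTC and GAA with 3 bases between were in 2 of the 9 and 2 of the 12, and with 4 bases between in 1 of the 9 and 1 of the 12.

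Markers of other cell types differed along the same division. Of the 6 classical monocyte markers, which include Ly6c2 and Plac8, 6 and 5 had UMIs in cells with Fcgr1 or Ly6c2, at a summed 5905 CPM in the control and 3699 CPM in the fibrosis library, against 497 and 982 CPM without. The 5 plasmacytoid markers summed to 2646 and 528 CPM with and 93.5 and 102 CPM without, and those of macrophages to 467 and 697 CPM with and 350.0 and 510 CPM without. Neutrophil markers, all 5 present, summed to 480 and 9333 CPM with and 2047 and 1245 CPM without, and AT2 markers to 11923 and 23297 CPM with and 13494 and 8556 CPM without. B cell markers had 12 and 19 UMIs and T cell markers 2 and 16 UMIs over all members, with Cd79a at 0 by the rule. The part of these transcripts in the values of the division was not tested beyond the leaving out of cells given next.

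The cells with Fcgr1 or Ly6c2 were not of 1 kind. Of the 29 control cells, 10 had at least 2 UMIs of Siglech, the plasmacytoid marker, as did 3 of the 32 fibrosis cells. No cell without Fcgr1 or Ly6c2 had as many. Those 10 control cells held between 3 and 12 UMIs of Tcf4, the factor of the plasmacytoid lineage, between 9 and 20 of Irf8 and between 11 and 27 of Plac8. They held 0 UMIs of Mgl2, Ccl17, H2-DMb2 and Id2, and between 2 and 5 of Cd209a. Of the 151 Irf8 UMIs in control members, 130 were in these cells, and of the 5 plasmacytoid markers all 5 were present. They entered by the rule but carry the genes of plasmacytoid rather than type 2 dendritic cells.

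A further 7 control and 19 fibrosis members held many transcripts of another cell type. The cut-offs were set after the values were seen, at 50 UMIs of Sftpc (AT2 cells), 30 of S100a8 and S100a9 (neutrophils), 5 of Gzma and Nkg7 (cytotoxic lymphocytes) or 100 of Scgb1a1 and Scgb3a1 (club cells). The gap was wide. For Sftpc, 4 control and 7 fibrosis cells had at least 1042 and 302 UMIs and every other member at most 11 and 20. For S100a8 and S100a9, 3 and 9 cells had at least 34 and 112 and every other member at most 6. Of all members, 2 control and 9 fibrosis cells were among the 515 and 386 highest doublet scores of their libraries, including 1 of the 7 and 5 of the 19 mixed cells. None of the cells with Fcgr1 or Ly6c2 was among these highest scores, but some of them were mixed cells. Mixed cells were 1 of 29 control and 8 of 32 fibrosis cells with Fcgr1 or Ly6c2. They were 6 of 72 control and 11 of 159 fibrosis cells without either gene.

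Without the Siglech-bearing and mixed cells, 84 control and 169 fibrosis members were kept. The share with Fcgr1 or Ly6c2 was then 21.4% (18 cells, 13.2 to 31.7) and 12.4% (21 cells, 7.86 to 18.4). The difference went from -12.0 points (-23.0 to -1.46) to -9.00 (-20.3 to 1.13), an interval that spans 0. In the control library 24 of 483 genes were then at least 2-fold higher (4.97%) and 21 lower (4.35%), and in the fibrosis library 23 of 952 higher (2.42%) and 36 lower (3.78%). Of the 482 genes counted in both, 8 were higher in both, 11 lower in both and 0 opposite. Lyz2 was at 3.07 and 2.21 on the log2 scale, Plac8 at 3.18 and 2.21, Bst2 at 1.66 in each library, and Irf8, with 19 and 41 UMIs left, at 1.81 and 2.01. Lyz2 was thus further apart without these cells. Bst2 (3.71 and 2.01 in all members) and Irf8 (5.23 and 2.81) were less so.

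Within the kept members, Mgl2 and Plac8 divided the cells more cleanly than Fcgr1 and Ly6c2 did. These genes were picked after their values were seen, so what follows is a description without a test. A cell was called an Mgl2 cell with at least 1 UMI of Mgl2 and under 2 of Plac8, and a Plac8 cell with at least 2 of Plac8 and none of Mgl2. Both were rare in AT2 cells, with at least 2 Plac8 UMIs in 2.30% and 2.12% and Mgl2 in 0.627% and 1.42%. Other classes held them more often. At least 2 Plac8 UMIs were found in 15.3% and 10.6% of type 1 dendritic cells and 28.5% and 46.4% of B cells. Mgl2 was found in 13.6% and 29.6% of type 1 cells. The control library held 55 Mgl2 cells (65.5%, 54.3 to 75.5), 27 Plac8 cells (32.1%, 22.4 to 43.2), 1 cell with both and 1 with neither. The fibrosis library held 102 Mgl2 cells (60.4%, 52.6 to 67.8), 44 Plac8 cells (26.0%, 19.6 to 33.3), 8 with both and 15 with neither. Their medians were 4833 and 5067 UMIs in the control library and 5341.5 and 4348 in the fibrosis library, so the Plac8 cells were the deeper ones in the control library and the shallower ones in the fibrosis library.

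**Figure D3:**
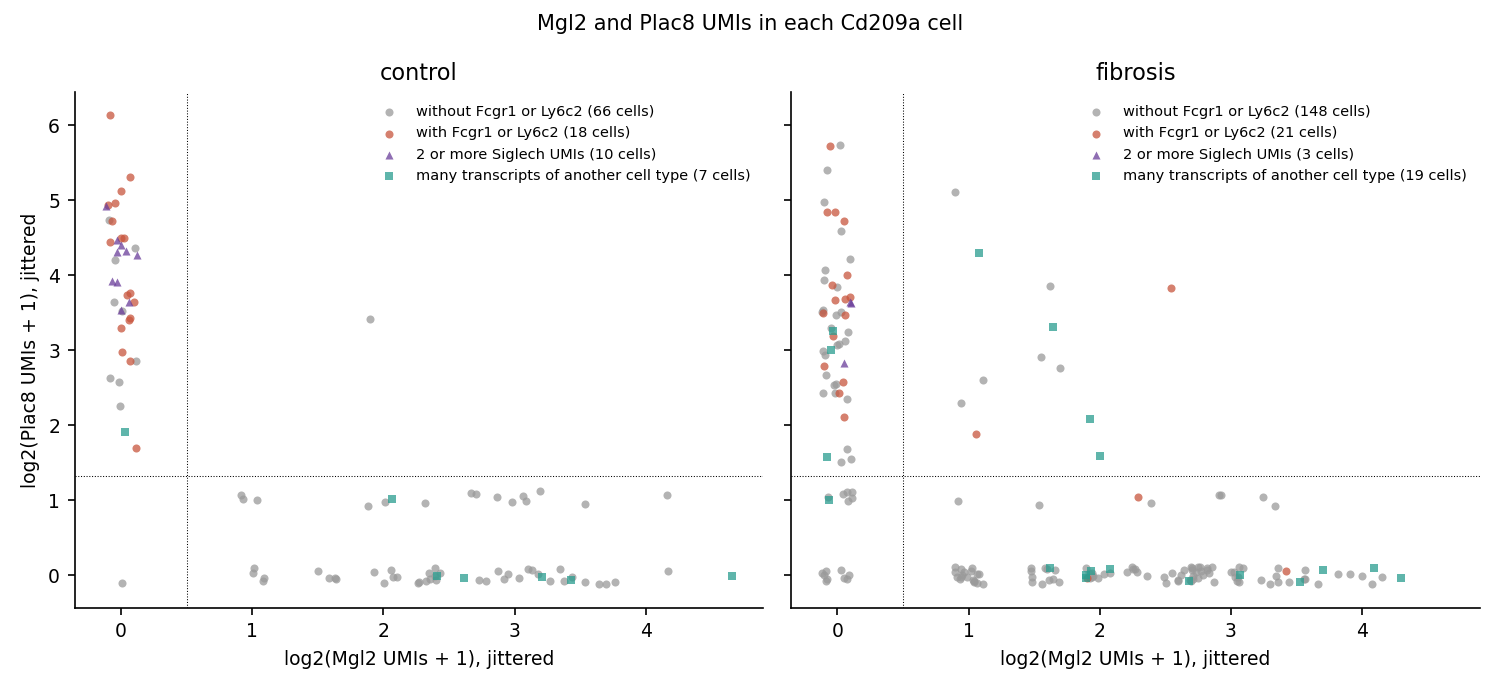
Mgl2 (x axis) and Plac8 (y axis) in each Cd209a cell as log2(UMIs + 1), jittered, in the control (left) and fibrosis (right) library, with dotted lines at 1 Mgl2 UMI and 2 Plac8 UMIs. Few cells lie in the upper right field of either library, and the cells with Fcgr1 or Ly6c2 (red) and with Siglech (purple) gather at the upper left.

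After thinning to 1500 UMIs the control cells fell into 45 with Mgl2 alone, 25 with Plac8 alone, 2 with both and 12 with neither, at 1 UMI of either gene. The fibrosis cells fell into 71, 42, 5 and 51. Fcgr1 or Ly6c2 was more frequent among the Plac8 cells. It was found in 18 of 27 control Plac8 cells (66.7%, 46.0 to 83.5) and 16 of 44 fibrosis ones (36.4%, 22.4 to 52.2), and in 0 of 55 and 3 of 102 Mgl2 cells, where the exact upper limit for 0 of 55 is 6.49%. A further 2 of the 8 fibrosis cells with both genes had it, so that 5 of the 21 kept fibrosis cells with Fcgr1 or Ly6c2 carried Mgl2. Cd209a itself was at 1358 CPM in control Plac8 and 1598 CPM in control Mgl2 cells, and at 914 and 1335 CPM in the fibrosis library, so both kinds carried the gene that chose them.

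Ccl17 ranked lowest in Plac8 against Mgl2 cells. Plac8 cells had 0 Ccl17 UMIs in both libraries, in 27 and 44 cells, while Mgl2 cells had 389 UMIs (1413 CPM, 60.0% of cells) and 848 UMIs (1512 CPM, 72.5%). With a floor of 3 counts over the group, Ccl17 was at least 66.5-fold lower in control and 106-fold lower in fibrosis Plac8 cells. Bcl2a1a, an inhibitor of cell death, had 0 against 62 UMIs and 1 against 122, with its family near identical in sequence. Mmp12, an elastase, had 0 against 68 and 3 against 105. Il1rl1, the receptor for the alarmin IL-33, had 1 against 34 and 0 against 59 UMIs. Mt1, a metal-binding protein, was at 56.6 against 926 CPM and 47.4 against 699 CPM. Summed over cells, the Mgl2 cells thus held transcripts of the T cell chemokine, the IL-33 receptor and the protease in both mice. The Plac8 cells held nearly none of them. Of all kept members, only 20.2% and 27.2% had a UMI of Mmp12, and 31.0% and 25.4% had one of Il1rl1.

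Other genes were lower but present in the Plac8 cells. Id2 had log2 ratios of Plac8 over Mgl2 cells of -2.63 (-3.51 to -1.94) in the control and -2.37 (-2.98 to -1.86) in the fibrosis library. H2-DMb2 had -2.53 and -2.13, and Cst3 -1.79 and -1.80. Itgax, the integrin CD11c of dendritic cells, had -1.94 and -1.79, and Cd24a -2.21 and -3.26. Axl, a receptor for dying cells, had -4.11 and -2.32. Ear2 had -3.71 and -3.47, the class II chain H2-Eb1 -1.06 and -0.89, and Irf4 -0.79 (-2.67 to 0.60) and -1.30 (-2.65 to -0.29). The control interval of Irf4 spans 0.

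Other genes were higher in the Plac8 cells, among them several of the Ifitm family. Cd7, a surface protein of lymphocytes and precursors, had 57 UMIs against 0 in the control library, at least 37.0-fold higher, and 64 against 4 in the fibrosis library. Ifitm3 was at 4005 against 465 CPM (log2 ratio 3.10, 2.83 to 3.40) and 3789 against 394 CPM (3.26, 3.05 to 3.49). Ifitm6 had 60 against 5 and 108 against 5 UMIs, and Ifitm1 and Ifitm2 had log2 ratios of 5.47 and 2.87 in the control library and 4.22 and 2.40 in the fibrosis library. The clotting factor subunit F13a1 had 35 against 4 and 16 against 3 UMIs. Fyb, an adaptor of integrin signalling, had 3.05 and 2.87 on the log2 scale, Ms4a6b 3.02 and 2.76, and Lst1 2.48 and 2.71. Lyz2 was at 8710 against 1329 CPM and 3680 against 1258 CPM. Clec10a, a marker of the label, was in the Plac8 cells rather than the Mgl2 cells of the control library, with 34 against 5 UMIs (log2 ratio 3.61, 2.37 to 5.44), and less so in the fibrosis library, with 37 against 41 UMIs (1.26, 0.58 to 1.94).

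**Figure D4:**
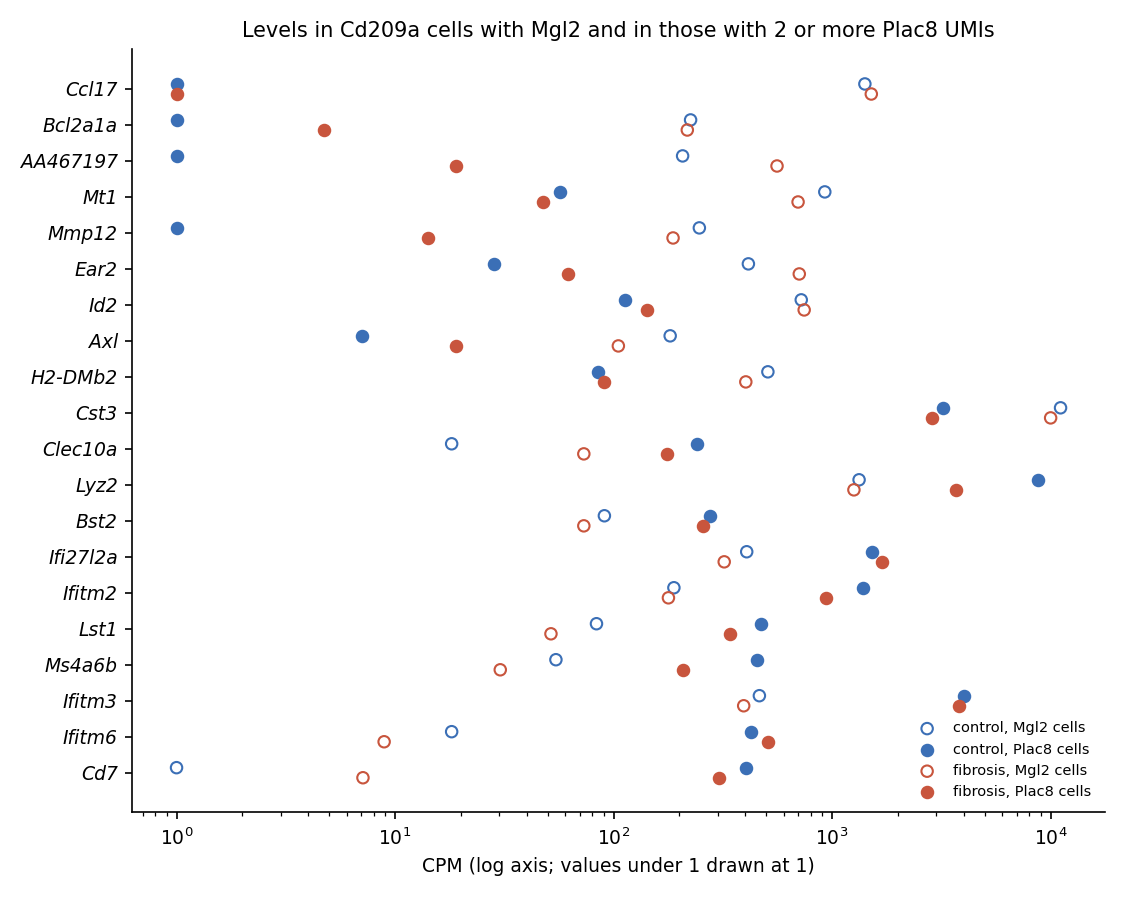
Level (CPM, log axis, values under 1 drawn at 1) of 20 genes in the Mgl2 cells (open circles) and Plac8 cells (filled circles) of the control (blue) and fibrosis (red) library. For each gene the open circles of both libraries lie on the same side of the filled ones, with Ccl17 at 0 in both groups of Plac8 cells and Ifitm3 near 4005 and 3789 CPM there.

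Genes of the label were not all on the same side. Sirpa had log2 ratios of Plac8 over Mgl2 cells of -0.10 (-1.08 to 0.77) and 0.17 (-0.56 to 0.84), Itgam -0.37 and -0.18, and Klf4, a factor of a type 2 subset, -0.19 and -0.18. The intervals of these genes span 0, which does not show that the levels are equal. Flt3 had 0.87 (-0.25 to 1.98) and 1.46 (0.65 to 2.28). Csf1r, the growth factor receptor of the monocyte and macrophage lineage, had 0.28 (-0.59 to 1.09) and 0.60 (-0.17 to 1.31). Over all members Csf1r was at 122 and 103 CPM, against 356 and 404 CPM in classical monocytes and 1156 and 943 CPM in interstitial macrophages. The members thus held this receptor's transcripts below the level of either class.

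At a minimum of 100 UMIs, fibrosis and control members differed in few genes. Most of the higher genes, but not most of the lower ones, differed alike in other cells. Of 1776 genes with at least 100 UMIs over both libraries, 23 were at least 2-fold higher (1.30%) and 16 at least 2-fold lower (0.901%) in fibrosis members. The median log2 ratio over all was -0.06. As a measure of shifts of a whole library, the median log2 ratio over the other classes was taken for each gene with 20 UMIs in at least 3 of 6 classes. Of the 22 higher genes with such a median, 16 were also at least 2-fold higher there, and of the 16 lower genes 5 were also lower. Nme2, Hist1h2ap and AY036118 were among the highest and Wdr89, Rps27rt and Gm10263 among the lowest in this way. Nme2, for example, went from 7.63 to 138 CPM in members (log2 ratio 4.01), and its median in the other classes was 3.35.

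**Figure D5:**
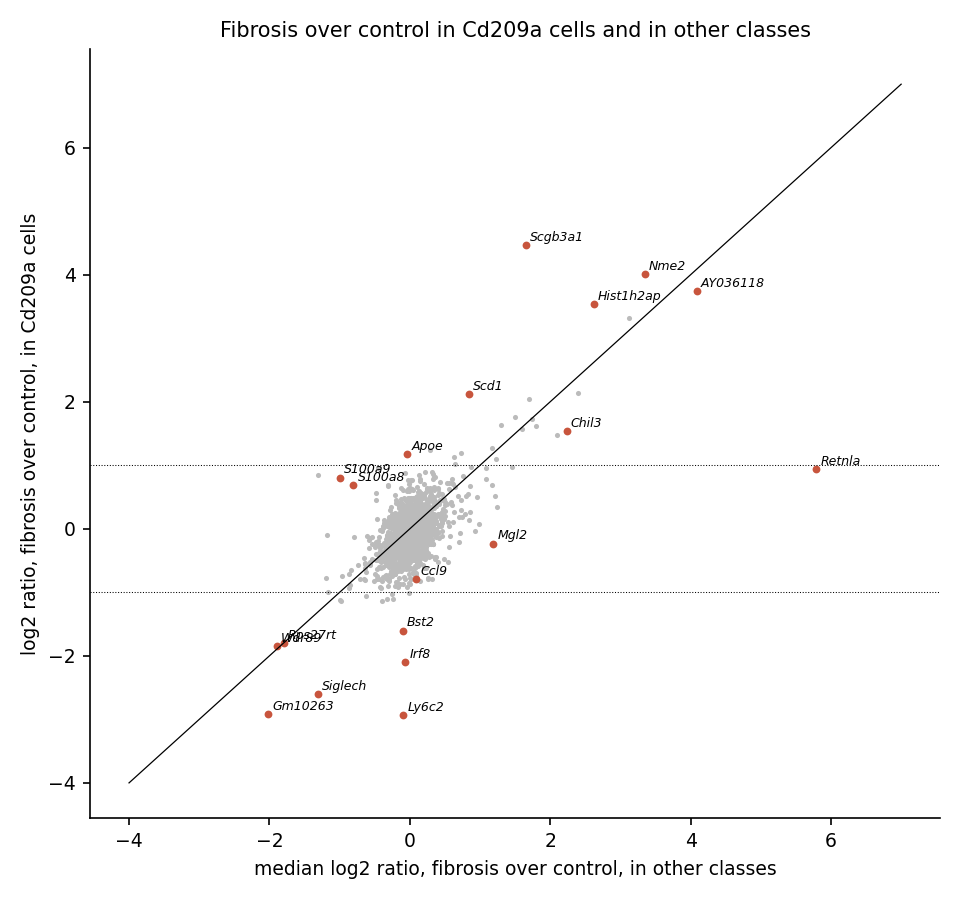
Log2 CPM ratio, fibrosis over control, in the Cd209a cells (y axis) against the median of the same ratio in the other classes (x axis), with the line of equality and dotted lines at 2-fold. Nme2, Wdr89 and Rps27rt lie near the line, Ly6c2, Irf8 and Bst2 lie below it near 0 on the x axis, and Retnla lies far below it at 5.79, where 1 control cell holds all 39 control UMIs of the Cd209a cells.

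Several of the lower genes were those of the Siglech-bearing cells. Ly6c2 went from 185 to 48 UMIs (353 to 45.9 CPM, log2 ratio -2.93, -3.43 to -2.48) with a median of -0.10 in the other classes. Irf8 went from 151 to 70 UMIs (-2.10), Siglech from 77 to 25 (-2.60) and Bst2 from 215 to 141 (-1.60). Among kept members Irf8 had 19 and 41 UMIs (0.04, -0.76 to 0.93), Bst2 had -0.37 (-0.83 to 0.11), and Ly6c2 remained lower with 89 and 29 UMIs (-2.65, -3.32 to -2.05). The kept members lack both kinds of set-aside cells. The Siglech-bearing cells alone held 130 of 151 Irf8, 149 of 215 Bst2 and 95 of 185 Ly6c2 UMIs of control members, and 27 of 70, 28 of 141 and 7 of 48 of fibrosis members.

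Among the higher genes, several rested on few cells. Scd1, an enzyme of fatty acid synthesis that AT2 cells use for surfactant, went from 168 to 736 CPM, and 75.4% of its fibrosis UMIs were in 5 cells. Among kept members it had 15 and 79 UMIs. S100a8 and S100a9 had log2 ratios of 0.69 and 0.81 in all members and -0.79 and -0.82 in kept members, beside medians of -0.80 and -0.99 in the other classes. Cells were set aside partly by these genes, so the S100a8 and S100a9 ratios in kept members are not a separate check. Of the 242 Scgb3a1 UMIs in fibrosis members, nearly all stood in the cell with club cell transcripts. Apoe, a lipid carrier of macrophages, went from 130 to 294 CPM (1.17, 0.80 to 1.58), with 70.7% of its fibrosis UMIs in 5 cells, and had 0.87 (0.47 to 1.30) in kept members against a median of -0.04 in the other classes. Tcf4 had -0.17 in all members and 1.17 (0.54 to 1.91) in kept members, with 23 and 109 UMIs, and 63 of its 88 control UMIs were in the Siglech-bearing cells.

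Without the set-aside cells, 19 of 1466 genes were at least 2-fold higher (1.30%) and 12 lower (0.819%). Of the 18 higher genes with a median in the other classes, 15 were also at least 2-fold higher there. After that median was subtracted, 4 genes were at least 2-fold higher and 8 lower in kept members, against 9 and 11 in all members.

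The type 2 cytokine response list holds genes which IL-4 and IL-13 act on. Of its 10 genes that met the minimum, 1 was at least 2-fold higher, beside 1.30% of all genes, and 0 lower. Their median was 0.02. Retnla, a secreted resistin-like protein, went from 74.4 to 144 CPM in members (0.94), and its median in the other classes was 5.79. That ratio rests on 1 control cell, which held all 39 control UMIs, while 51.8% of fibrosis members had a UMI and the highest had 6. Without that cell control members had 0 UMIs in 100 cells, and Retnla was at least 24.9-fold higher in fibrosis members (4.64 on the log2 scale) with a floor of 3 counts over the group. AT2 cells had 23.4 and 2701 CPM of it. Chil3 went from 216 to 629 CPM (1.54, 1.25 to 1.85; other classes 2.23), with a UMI in 23.8% and 69.6% of members. Mgl2 and Ccl17 were not higher, with log2 ratios of -0.23 (-0.42 to -0.04) and -0.03 (-0.19 to 0.14). In the other classes Mgl2 had -0.02 in interstitial macrophages, whose level was nearest to the members', 1.47 in type 1 cells and 1.19 in AT2 cells, where it was near background. The part of free RNA in the Retnla and Chil3 values was not tested.

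Within the Mgl2 and Plac8 cells, some genes had ratios of opposite sign or different size between the libraries. Chil3 was at 149 CPM in control and 672 CPM in fibrosis Mgl2 cells (log2 ratio 2.16), and at 311 and 237 CPM in Plac8 cells (-0.40), but 1 fibrosis Mgl2 cell held 124 of 377 UMIs. Ms4a4c, a membrane protein of monocytes, had a UMI in 10.9% and 33.3% of Mgl2 cells and in 85.2% and 54.5% of Plac8 cells. Ms4a6d had one in 38.2% and 60.8% of Mgl2 cells and in 37.0% and 20.5% of Plac8 cells. Lyz2 was at 1329 and 1258 CPM in Mgl2 cells and at 8710 and 3680 CPM in Plac8 cells. Over all members Lyz2 was at 5739 and 3399 CPM, of which 1228 of 3009 and 1760 of 3551 UMIs were in the mixed cells. The difference between the Mgl2 and Plac8 cells in these shifts was not tested. These 4 genes were chosen after their values were seen.

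For antigen presentation, 0 of 13 class II genes that met the minimum were past 2-fold between the libraries, with a median log2 ratio of -0.06. Over all genes only 1.30% were higher and 0.901% lower, so counts of 0 in lists of this size do not set the lists apart. H2-Aa was at 7525 and 6941 CPM (-0.12, -0.17 to -0.06) and Cd74, the invariant chain that guides class II molecules, had -0.02. Of 6 class I genes 0 were past 2-fold, with a median of -0.25. Of the type 2 dendritic cell list 0 of 16 were past 2-fold, with a median of -0.27. Cd209a itself, which the rule used, had -0.33 (-0.46 to -0.19).

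Among growth factor receptors and lineage factors 1 of 15 genes was at least 2-fold lower, beside 0.901% of all genes, and 0 were higher. It was Irf8, of which 130 of 151 control UMIs were in the Siglech-bearing cells and which had 0.04 in kept members. Irf4 had 0.50 (-0.15 to 1.22), Klf4 -0.08, Zeb2, which monocytes and type 2 cells share, -0.53 (-0.88 to -0.18), and Csf2ra, a chain of the GM-CSF receptor, -0.04. Of cell cycle genes 0 of 6 passed 2-fold, with a median of 0.51. Hmgb2 had 0.63 (0.32 to 0.96), Stmn1 0.60, Top2a 0.64 and Tubb5 0.42. At least 3 UMIs of cycling genes were found in 3 of 101 and 10 of 191 members, against 8 of 59 and 25 of 142 type 1 cells.

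Of chemokine ligands 1 of 5 was at least 2-fold higher, beside 1.30% of all genes. It was Ccl5 (15 and 95 UMIs, log2 ratio 1.63), also higher in the other classes (1.30). Among kept members it had 14 and 17 UMIs. Ccl9, a ligand of Ccr1, was lower at 423 and 245 CPM (-0.79, -1.05 to -0.52), while its median in the other classes was 0.09. It was higher in Plac8 than in Mgl2 cells in both libraries, by 1.68 and 1.90 on the log2 scale. Ccr2, the receptor by which monocytes enter tissue, was at 380 and 331 CPM in members, close to the 370 and 365 CPM of type 1 cells and below the 864 and 860 CPM of classical monocytes.

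Cytokines and costimulatory genes were mostly under the minimum. Of 18 cytokines only Tgfb1 met it, with 128 and 174 UMIs (-0.55, -0.89 to -0.21; other classes -0.57). Il1b had 39 and 51 UMIs, and Ebi3, a subunit of IL-27 and IL-35, 31 and 24. Of 16 costimulatory and checkpoint genes only Vsir met it. Among the lectins beside Cd209a, Cd209d had 21 and 81 UMIs (0.93, 0.25 to 1.72), with a UMI in 8.91% and 17.8% of members. Cd209e had 1 and 32. Cd209d is 75.0% identical to Cd209a over the aligned part of the coding sequence and 71.5% over that of the last 300 bases. Neither Cd209d nor Cd209e passed 2-fold with the minimum met.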

How the data were processed

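Per the labels, 2 whole-lung suspensions, 1 mouse each, were sequenced with 10x 3′ V2 chemistry. Per the submitters' processing notes, the authors used Cell Ranger 1.3 and bcl2fastq with the build mm10. The deposited values are raw counts of UMIs per gene (27998 genes) and cell, without normalization, in cells already selected.

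Counts were summed over cells per library as CPM. Ratios had 0.5 UMI added, with exact binomial intervals for ratios and shares (Clopper-Pearson) and exact Poisson intervals for levels. Intervals of differences between shares combined the exact ones by Newcombe's square-and-add method. Cells were thinned to 1500 UMIs for shares. The ratio step was tested on simulated data. Comparator classes were chosen by marker UMIs. Doublets were scored but not removed, except as an alternative. Python 3.11.15, numpy 2.4.6, pandas 2.3.3, scipy 1.17.1 and scikit-learn 1.9.0 were used. Positions came from GENCODE M21, and the stretches before gene starts from RefSeq.

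Genes named were the markers, list members with examples, the 12 highest and 12 lowest of each contrast (with and without the comparator median) and those marked as picked later. The members and lists were chosen with earlier results of these data known. Of 370 list symbols, 6 did not match and are not analysed here. Results of a few genes are not reported here.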

Additional observations from a re-analysis of the deposited data

Results flagged for a closer look

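S100a8 and S100a9, the calprotectin genes of neutrophils, went opposite ways in the libraries when Cd209a cells with a UMI of Fcgr1 or Ly6c2 were set over those without. In the control library S100a8 had a log2 ratio of -2.20 and S100a9 of -2.08, and in the fibrosis library 2.95 and 2.87. The difference between the libraries was not tested. Of S100a8 UMIs in members, 74.1% of the control and 71.7% of the fibrosis ones were in 5 cells. Without the set-aside cells the S100a8 ratios were -0.34 (-1.11 to 0.32) and -0.02 (-0.94 to 0.72), and those of S100a9 -0.28 (-1.24 to 0.52) and 0.04 (-1.13 to 0.94).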

How the results depend on the processing

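Of 150 values of the main results under the alternatives, 122 moved by less than their interval or stayed within 1.5 times the count. The other 28 moved further and 0 changed sign. Only the differences between shares could change sign, because the remaining values were counts of genes. The difference in the members' share (1.49 points) was 2.00 with Cd209a at 1 UMI, 2.18 with mitochondrial UMIs at most 5% and 1.03 without members bearing markers of other lineages. Counts of genes followed the UMI minimum. With 30 UMIs, 146 genes were higher and 109 lower in fibrosis members, 180 and 135 by Fcgr1 or Ly6c2 in the control library, and 217 and 216 in the fibrosis library. With 300 UMIs the counts were 13 and 5, 7 and 10, and 15 and 10. Thinning to 1500 UMIs gave 58 and 50 between libraries and 76 and 73 in the fibrosis division. There the minimum was still applied to the unthinned counts, so these ratios rest on fewer UMIs than the main ones. With Cd209a at 1 UMI, 44 genes were higher in fibrosis members and 51 in control cells with Fcgr1 or Ly6c2, and at 3 UMIs 10 were lower in fibrosis members. Subtracting the median of the other classes left 9 higher. In the fibrosis division 25 were higher with mitochondrial UMIs at most 5%. Without mixed cells 25 were, and without both set-aside kinds 23, and these last 2 alternatives were added after seeing the data. There, 104 were lower by Fcgr1 alone and 71 with 2 or more UMIs against 0.

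The interval of the Fcgr1 or Ly6c2 difference (-12.0 points) spanned 0 with Cd209a at 3 UMIs (-8.38), class II at 20 UMIs (-8.00), without other lineage markers (-7.86), without Siglech-bearing cells (-5.45), without both set-aside kinds (-9.00) and for Fcgr1 alone (-3.21). List medians changed sign for growth and lineage factors (0.0016) and chemokine ligands (0.034) when scaled by the median gene. They did so after subtraction of the other classes for type 2 cytokine response (-0.69), lipid mediators (0.063), scar macrophage genes (-0.18) and transcripts of other lung cells (-0.12), and without the set-aside cells for mitochondrial genes (0.028). The cause was not tested. With 1 library per group no library could be left out, and no paired analysis was possible because each group has 1 sample. Fcgr1 rested on 8 and 9 cells.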

Other observations

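Among the 292 Cd209a cells, 15 of 169 kept fibrosis cells and 1 of 84 kept control cells had neither Mgl2 nor 2 UMIs of Plac8, and 8 and 1 had both. The median totals of the fibrosis cells with neither and with both were 3989 and 4297 UMIs, below the 5341.5 UMIs of the Mgl2 cells. Before any cell was set aside, the Mgl2 and Plac8 cells were 61 and 38 of 101 control members, and 113 and 50 of 191 fibrosis members.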
